A study of Mus musculus with 6 samples.

Results

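Hbb-bs, Hbb-bt, Hba-a1, Hba-a2, Slc4a1 and Alas2 are genes that mark red blood cells and their precursors, and they were followed here through 6 libraries of mouse liver RNA. The 6 genes were chosen by name, with levels in these libraries already known, chiefly the high haemoglobin share of WT 1. Their levels and differences are therefore given as a description, and what a test over the whole table returns for them supports nothing further. All 6 were found among the 15092 genes of the deposited table, and 6 of 6 passed the filter on low counts that left 13816 genes for testing.

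A set of 3 libraries labelled CRY1 KO (CRY1 KO 1, 2 and 3) were compared with 3 labelled WT (WT 1, 2 and 3). Both groups are C57BL/6J mice by the labels, which name liver as tissue and also state a cell type, hepatocyte. They name no allele for the knockout, no treatment, time of day, age, sex, perfusion or cell sorting, and do not say that replicates were separate animals, so the spread between libraries may be in part technical. Every title also begins with NC, which the labels do not explain. Cry1, which encodes the circadian repressor cryptochrome 1, had estimated counts of 561, 521 and 445 in CRY1 KO 1, 2 and 3, against 413, 579 and 694 in WT 1, 2 and 3. These whole-gene values do not separate the groups, and each direction below is that of the labels. Library totals were between 79708703 and 91316332. Hepatocyte markers were high in all libraries, with a summed level of 94552 to 103718 CPM in the libraries labelled CRY1 KO and 91614 to 98133 CPM in WT. CPM, the usual depth-scaled unit, are counts relative to library sizes adjusted by TMM. Markers of Kupffer cells, endothelium and blood cells were also present, with values given below.

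Adult haemoglobin is a tetramer of α and β chains, each carrying a haem group that binds oxygen. Red cell precursors make it in the bone marrow, and in mice also in the spleen. They lose their nucleus on release, so young red cells in the blood still hold globin messenger RNA but make little that is new. Haem synthesis begins with δ-aminolevulinate synthase, encoded by Alas2 in erythroid cells and by Alas1 in liver and most other tissues. Slc4a1 encodes band 3, the anion exchanger that anchors the red cell membrane to its skeleton.

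Hbb-bs and Hbb-bt encode the adult β chains of the haplotype that C57BL mice carry. Hbb-bs had 183.5, 161.2 and 204.9 CPM in CRY1 KO 1, 2 and 3, against 1062.6, 344.9 and 186.7 CPM in WT 1, 2 and 3. Hbb-bt had 74.7, 67.5 and 82.5 CPM in CRY1 KO 1, 2 and 3, against 464.8, 139.0 and 74.5 CPM in WT 1, 2 and 3. For both genes WT 1 was highest and WT 2 next, while WT 3 lay within the range of the libraries labelled CRY1 KO.

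Hba-a1 and Hba-a2 encode the adult α chain. Hba-a1 had 159.7, 133.7 and 196.5 CPM in CRY1 KO 1, 2 and 3, against 713.6, 239.9 and 165.7 CPM in WT 1, 2 and 3. Hba-a2 had 127.9, 105.7 and 151.8 CPM in the same libraries labelled CRY1 KO, against 593.9, 191.5 and 134.1 CPM in WT 1, 2 and 3. The order of the WT libraries was that of the β genes, and the groups overlapped through WT 3 in all 4 globin genes. WT 1 exceeded the highest of the other 5 libraries 3.08-fold for Hbb-bs, 3.34-fold for Hbb-bt, 2.97-fold for Hba-a1 and 3.10-fold for Hba-a2.

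Summed over the 4 genes, haemoglobin took 0.0538%, 0.0435% and 0.0679% of the counts of CRY1 KO 1, 2 and 3, against 0.267%, 0.0917% and 0.0608% of those of WT 1, 2 and 3. The libraries labelled CRY1 KO differed among themselves by at most 1.36-fold in summed CPM. WT 1 was 3.10-fold above WT 2 and 5.05-fold above WT 3, and WT 2 was 1.44-fold above the highest library labelled CRY1 KO. The summed level was 549.9 ± 83.9 CPM in the libraries labelled CRY1 KO and 1437 ± 1223 CPM in WT (SD, n = 3 each). Ranked by counts, Hbb-bs held place 524 to 712 of the table in the libraries labelled CRY1 KO, against places 123, 309 and 550 in WT 1, 2 and 3.

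**Figure D1:**
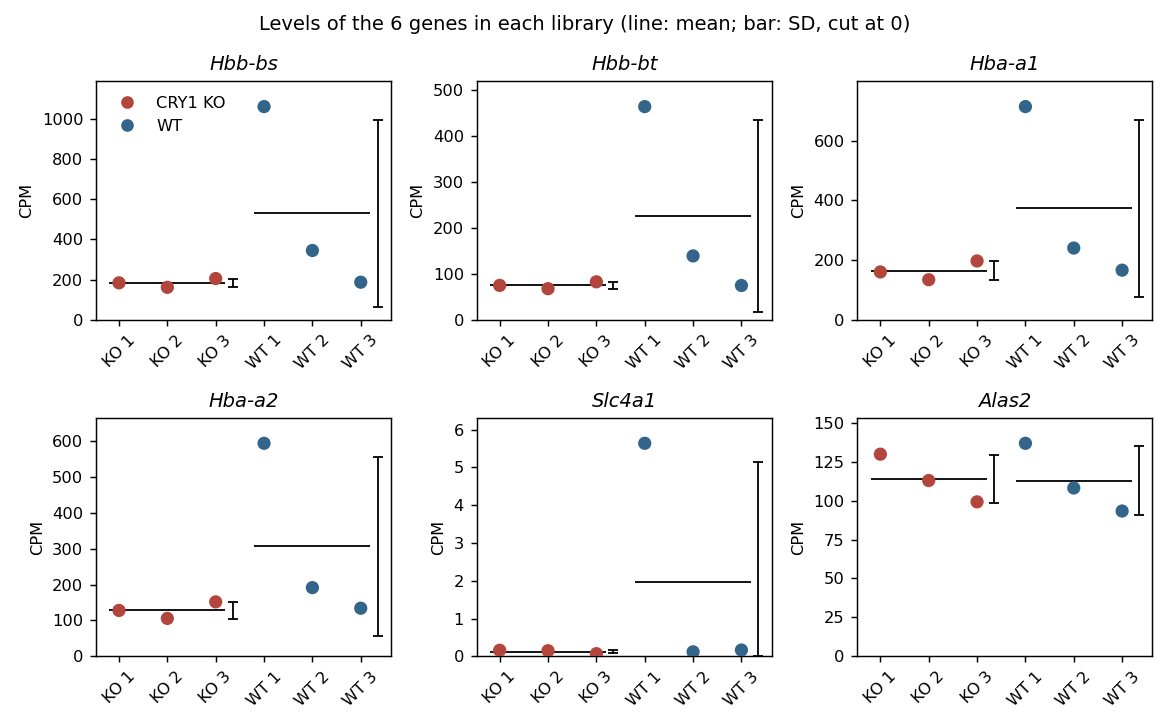
Level in CPM (vertical axes, linear, each from 0) of the 6 genes in the 3 libraries labelled CRY1 KO (red, left) and the 3 WT libraries (blue, right). Points are libraries, lines group means and bars SD, cut at 0. WT 1 stands at 1062.6 CPM for Hbb-bs and at 5.64 CPM for Slc4a1, but at 136.8 CPM for Alas2, near the 129.8 CPM of CRY1 KO 1.

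Slc4a1 and Alas2 differed from this pattern, each in its own way. Slc4a1 had estimated counts of 13, 12 and 6 in CRY1 KO 1, 2 and 3, against 485, 10 and 16 in WT 1, 2 and 3. Its levels were 0.161, 0.148 and 0.0704 CPM in CRY1 KO 1, 2 and 3, against 5.64, 0.119 and 0.167 CPM in WT 1, 2 and 3. The gene lies on chromosome 11, as the α-globin genes do. WT 1 was 33.8-fold above the highest other library, and WT 2, which was next highest for the globins, was below WT 3. In 5 of the 6 libraries Slc4a1 rested on 16 counts or fewer. Low values of the table do not count single fragments, since in each library 3 was a more frequent value than 1, 2 or 4, and differences among those 5 libraries were not detectable at this depth.

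Alas2 had 10474, 9185 and 8448 counts in CRY1 KO 1, 2 and 3, against 11769, 9091 and 8943 counts in WT 1, 2 and 3. Its level was 129.8, 112.9 and 99.2 CPM in these libraries labelled CRY1 KO, against 136.8, 108.1 and 93.3 CPM in WT 1, 2 and 3. WT 1 was again highest, but only 1.05-fold above CRY1 KO 1. Over the 6 libraries Alas2 spanned 1.47-fold, where summed haemoglobin spanned 6.06-fold. Per kilobase of coding sequence, Alas2 stood at 73.7, 64.1 and 56.3 CPM in CRY1 KO 1, 2 and 3, against 77.7, 61.4 and 53.0 CPM in WT 1, 2 and 3. On that scale Hbb-bs stood at 416.2, 365.5 and 464.6 CPM in CRY1 KO 1, 2 and 3, against 2409.5, 782.1 and 423.3 CPM in WT 1, 2 and 3. Slc4a1 stood between 0.0253 and 0.0578 CPM per kilobase in the libraries labelled CRY1 KO and between 0.0427 and 2.02 in WT, below Alas2 in every library. In the GENCODE M21 annotation Alas2 lies on chromosome X inside the gene Apex2, which runs on the opposite strand and encodes a DNA repair endonuclease. The use of strand in counting is not given in the sources used here, so reads of these 2 genes may not have been kept apart. Apex2 itself had 677 to 772 counts in the libraries labelled CRY1 KO and 558 to 855 in WT, below Alas2 in each.

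The ratios among the genes show the same contrast within each library, free of library scaling. α genes gave 52.7%, 51.1% and 54.8% of globin counts in CRY1 KO 1, 2 and 3, against 46.1%, 47.1% and 53.4% in WT 1, 2 and 3. The α share was thus lowest in WT 1 and WT 2, where globin counts were highest. Hba-a1 gave 55.5% to 56.4% of α counts in the libraries labelled CRY1 KO and 54.6% to 55.6% in WT. Hbb-bs gave 70.5% to 71.3% of β counts in the libraries labelled CRY1 KO and 69.6% to 71.5% in WT. The authors' handling of reads that match both copies sets these paralog shares, which are uncertain for that reason. The coding sequences of Hba-a1 and Hba-a2, of 426 bases each, differ at 1 base, and those of Hbb-bs and Hbb-bt, of 441 bases each, also differ at 1.

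Set against globin, the remaining members moved in opposite directions. Per 1000 globin counts there were 0.295, 0.315 and 0.111 counts of Slc4a1 in CRY1 KO 1, 2 and 3, against 1.99, 0.130 and 0.297 in WT 1, 2 and 3. WT 1 was 6.31-fold above the highest other library in this ratio, so the excess of Slc4a1 there was larger than that of globin. For Alas2 the ratio was 238, 241 and 156 in CRY1 KO 1, 2 and 3, against 48.3, 118 and 166 in WT 1, 2 and 3. It was lowest in WT 1 and next lowest in WT 2.

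**Figure D2:**
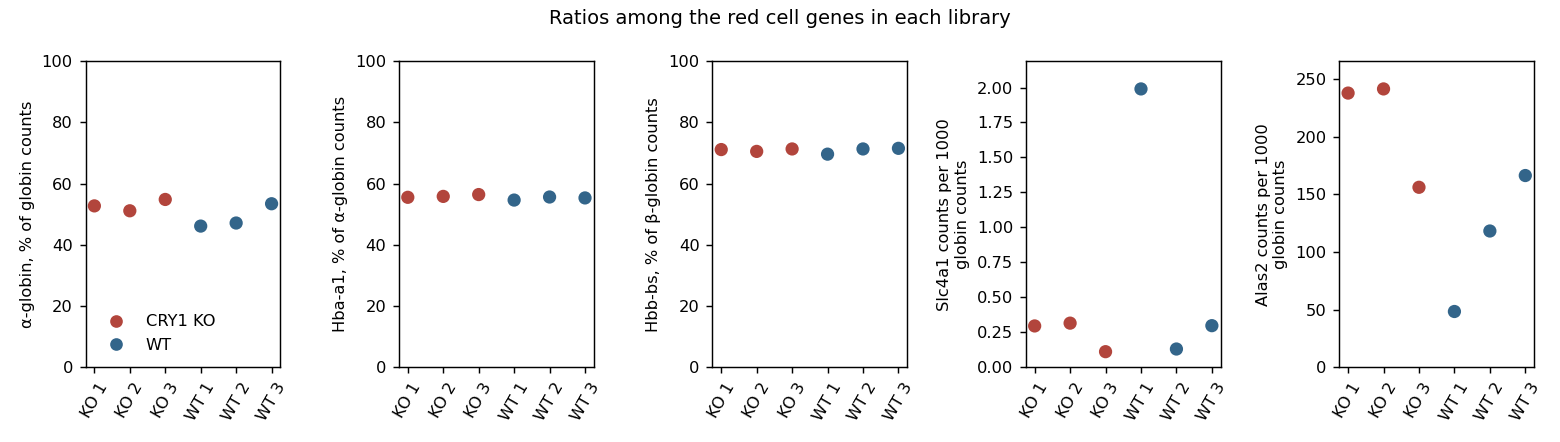
Ratios within each library (vertical axes, each from 0), with the libraries labelled CRY1 KO in red on the left and WT in blue on the right. Paralog shares keep within 54.6% to 56.4% for Hba-a1 and 69.6% to 71.5% for Hbb-bs, while WT 1 stands apart with 1.99 counts of Slc4a1 and 48.3 of Alas2 per 1000 globin counts.

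The promoters of the members are shown as description only, and any link to the levels above was not tested. Promoter sequences were found in the RefSeq table (GRCm38.p6) for 5 of the 6 genes, Slc4a1 being the one without an entry. Capitals mark 4 motifs searched on both strands, GATAA for GATA factors, CACCC for Krüppel-like factors such as KLF1, CCAAT, and TATAA for the TATA box. Each sequence is the 250 bases before the annotated start, 5′ to 3′ on the gene's strand.
Hbb-bs: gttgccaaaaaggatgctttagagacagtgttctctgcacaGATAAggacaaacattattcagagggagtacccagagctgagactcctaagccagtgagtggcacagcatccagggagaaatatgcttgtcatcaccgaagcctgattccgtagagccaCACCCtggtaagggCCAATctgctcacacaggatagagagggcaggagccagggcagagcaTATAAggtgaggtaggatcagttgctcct
Hbb-bt: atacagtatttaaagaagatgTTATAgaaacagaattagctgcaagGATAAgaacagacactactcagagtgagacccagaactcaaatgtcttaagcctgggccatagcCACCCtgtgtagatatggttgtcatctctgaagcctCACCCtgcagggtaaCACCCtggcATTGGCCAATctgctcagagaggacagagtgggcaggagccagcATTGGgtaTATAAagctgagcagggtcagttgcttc
Hba-a1: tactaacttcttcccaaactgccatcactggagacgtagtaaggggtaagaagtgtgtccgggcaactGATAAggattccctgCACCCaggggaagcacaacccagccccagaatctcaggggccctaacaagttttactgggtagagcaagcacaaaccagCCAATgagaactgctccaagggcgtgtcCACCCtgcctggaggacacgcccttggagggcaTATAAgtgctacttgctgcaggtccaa
Alas2: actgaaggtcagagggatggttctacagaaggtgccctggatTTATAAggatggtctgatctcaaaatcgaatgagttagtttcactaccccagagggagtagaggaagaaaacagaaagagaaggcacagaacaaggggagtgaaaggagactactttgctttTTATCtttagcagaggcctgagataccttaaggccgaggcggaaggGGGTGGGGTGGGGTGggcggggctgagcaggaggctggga
The windows are chr7:103827929-103828178 on the minus strand, chr7:103813924-103814173 on the minus strand, chr11:32283422-32283671 on the plus strand and chrX:150547167-150547416 on the plus strand. That of Hba-a2 (chr11:32296242-32296491, plus strand) is the same as that of Hba-a1 over the 247 bases that both windows hold once shifted by 3 bases. In all 4 globin windows a TATAA begins 27 to 30 bases, a CCAAT 75 to 91 bases and a CACCC 60 to 90 bases before the start, with other matches farther away or beside them, and a GATAA begins 182 to 209 bases before it. The Alas2 window holds 1 GATAA at 86 bases, on the opposite strand, and 3 adjoining matches to CACCC at 40, 35 and 30 bases, also on that strand. Its only TATAA matches, at 207 and 208 bases, overlap each other on the 2 strands, and it holds no CCAAT. Of 32851 promoter windows of this length 22.6% hold GATAA, 52.0% CACCC, 33.8% CCAAT, 22.8% TATAA and 0.968% all 4. Such matches describe the letters of the window and do not show binding.

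Fitted differences of the 6 genes were negative for 5 of them, and those 5 were closer to 0 without WT 1. The edgeR log2 difference, libraries labelled CRY1 KO minus WT, was -1.54 (SE 0.69) for Hbb-bs, -1.59 (SE 0.73) for Hbb-bt, -1.19 (SE 0.61) for Hba-a1, -1.25 (SE 0.62) for Hba-a2, -3.95 (SE 1.77) for Slc4a1 and 0.02 (SE 0.16) for Alas2. Without WT 1 these became -0.54, -0.51, -0.31, -0.34, -0.18 and 0.18. Over all tested genes the median was -0.02 with all libraries and -0.01 without WT 1. With an edgeR quasi-likelihood test adjusted over the whole table, 0 of the 6 were called, where 1.7% of all tested genes were. Without WT 1 again 0 of the 6 were called, where 4.04% of all tested genes were. Unadjusted p was under 0.05 for 0 of the 6 with all libraries, where it was for 20.7% of all tested genes. It was for 0 without WT 1 (20.9% of all tested genes), for 1 without WT 2 (14.3%), for 5 without WT 3 (26.4%), and for 2 by DESeq2 (20.7%), with 0 of the 6 called in each. In bulk RNA, fewer cells of a type and less RNA per cell cannot be told apart, so these levels give no number of red cells.

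**Figure D3:**
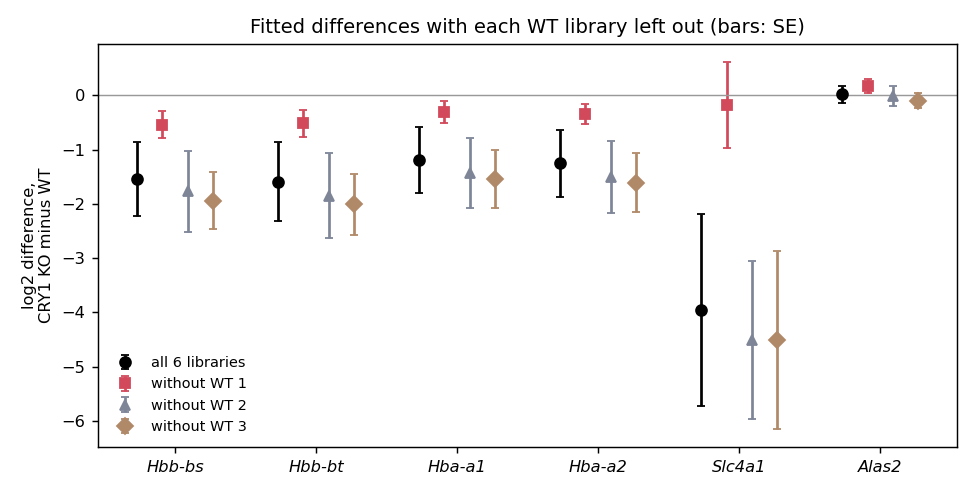
Log2 difference, CRY1 KO minus WT (vertical axis), for each of the 6 genes, with SE bars, from fits with all libraries and with each WT library left out. Without WT 1 the Hbb-bs value is -0.54 in place of -1.54 and that of Slc4a1 -0.18 in place of -3.95, while those without WT 2 or WT 3 are farther from 0 for these genes.

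Other genes of red cells and their precursors included some seen almost only in WT 1 and some at similar levels in all libraries. Others, such as Nfe2, Tfrc and Tent5c, followed neither pattern. Of 59 genes listed for globins, the red cell membrane, erythroid regulators and red cell maturation, 50 were in the table, of which 36 passed the low-count filter and 14 did not. In 17 of the 50 WT 1 was at least 2-fold above each of the other 5 libraries, a share of 34.0%, where the share was 1.25% of the whole table and 3.70% of genes whose 6 counts summed to under 500. By list these were 10 of 21 membrane genes, 3 of 9 regulators, 3 of 18 maturation genes and 1 of 2 further globin genes. Embryonic globins such as Hbb-y and Hba-x were listed but not found in the table, so they were not analysed.

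Several genes that are active while precursors still have a nucleus were listed at 0 in all 3 libraries labelled CRY1 KO, and in WT 2 and WT 3, but not in WT 1. Hemgn, which encodes the nuclear protein hemogen of blood-forming cells, had 113 counts in WT 1. Gata1, the master transcription factor gene of red cell and megakaryocyte development, had 27. Rhag, which encodes the Rh-associated glycoprotein, had 33, Ermap, a red cell adhesion protein gene, 84, and Epb42, which encodes the membrane skeleton protein 4.2, had 22 counts. Only 11 genes of the table were above 0 in WT 1 and at 0 in the other 5 libraries, and these are 5 of them. Trim10 was at 0 in the libraries labelled CRY1 KO, with 84, 7 and 0 counts in WT 1, 2 and 3. Ank1, which encodes the ankyrin that binds band 3, had 16, 6 and 3 counts in CRY1 KO 1, 2 and 3, against 100, 6 and 12 in WT 1, 2 and 3. The genes of this paragraph were named after their values were seen, and none of them except Ank1 passed the low-count filter.

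**Figure D4:**
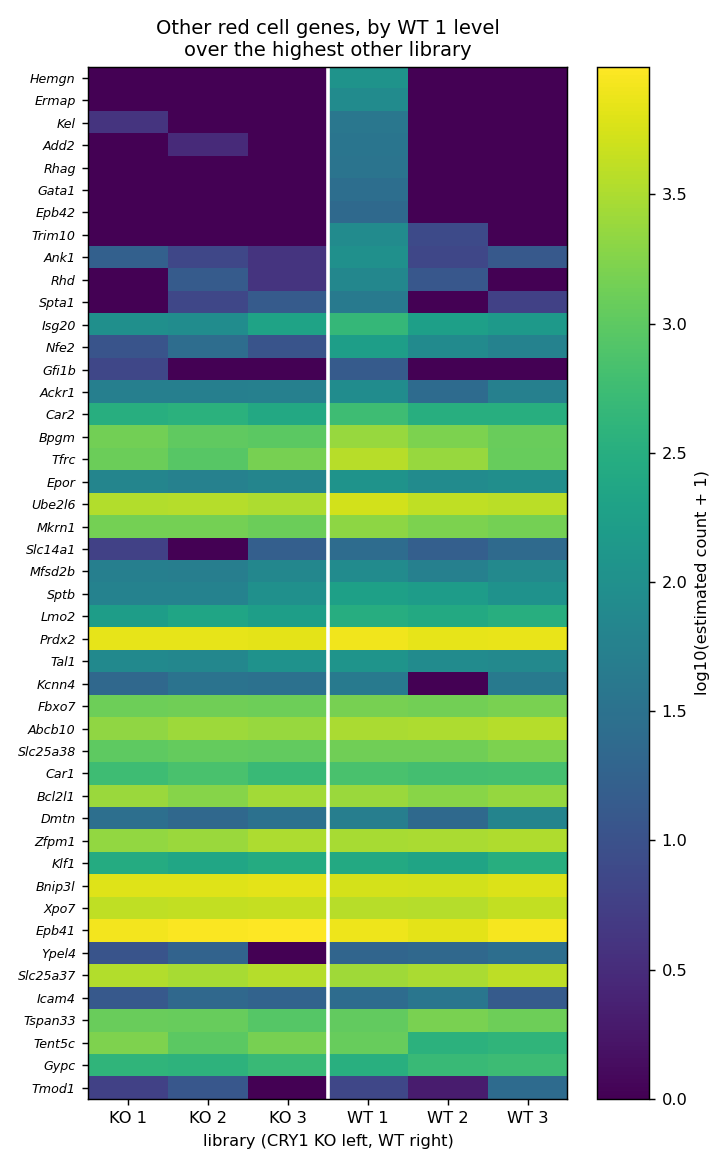
Estimated counts of 46 other red cell genes on a log10 scale after adding 1 (colour), with the libraries labelled CRY1 KO in the 3 left columns and WT in the 3 right ones. Genes run downward by the WT 1 level over that of the highest other library, after 7 genes with at most 3 counts outside WT 1. From Hemgn to Rhd the WT 1 column is the brightest of each row, while Prdx2, Epb41 and Bnip3l have similar colours in all columns on this log scale.

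Most of the abundant genes of these lists lacked the WT 1 excess of the globins, with Tfrc an exception. Klf1, which encodes the erythroid Krüppel-like factor that activates β-globin, had 3.56, 2.83 and 3.38 CPM in CRY1 KO 1, 2 and 3, against 3.14, 2.59 and 3.38 CPM in WT 1, 2 and 3, a span of 1.37-fold. Epb41, the gene of membrane skeleton protein 4.1, had 104.1 to 115.9 CPM in the libraries labelled CRY1 KO and 81.6 to 91.4 CPM in WT. Zfpm1, the gene of the GATA cofactor FOG1, had 27.2 to 38.0 CPM in the libraries labelled CRY1 KO and 33.9 to 36.1 CPM in WT. Tfrc, the transferrin receptor gene by which cells take up iron, had 15.5, 11.1 and 17.3 CPM in CRY1 KO 1, 2 and 3, against 42.5, 28.7 and 12 CPM in WT 1, 2 and 3, the order of the globins within WT. Prdx2, a peroxidase gene abundant in red cells, had 79.5 to 87.9 CPM in the libraries labelled CRY1 KO and 76.2 to 93.3 CPM in WT. Bnip3l, which encodes a receptor for removal of mitochondria, had 77.4 to 78.1 CPM in the libraries labelled CRY1 KO and 63.1 to 64.3 CPM in WT. Epb41 and Bnip3l were thus higher in the libraries labelled CRY1 KO (log2 0.34 and 0.29). DESeq2 called both (adjusted p = 0.014 and 0.00468), as it did 10.9% of the genes it adjusted. The edgeR test called neither (adjusted p = 0.0892 and 0.0813).

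Of the 36 tested genes of these lists 0 were called in the edgeR test, where 0.644% of all tested genes were called lower and 1.06% higher in the libraries labelled CRY1 KO. Of these genes 8 had an unadjusted p under 0.05, a share near the 20.7% of all tested genes. DESeq2 called 6, where it called 10.9% of the 12155 genes to which it gave an adjusted p. Some of the 36, such as Rhd and Ank1, had none and could not be called. The median log2 difference was -0.33 for 12 membrane genes, -0.53 for 7 regulators and -0.19 for 17 maturation genes, and -0.12, -0.39 and -0.01 without WT 1. With all libraries DESeq2 called 3 lower, Nfe2, Abcb10 and Slc25a38 (adjusted p = 0.000902, 0.0247 and 0.0428), and 3 higher, Epb41 and Bnip3l among them. Without WT 3, edgeR called the regulators Nfe2 and Tfrc lower (adjusted p = 0.0294 and 0.0424), where 2.63% of all tested genes were called lower. Without WT 1 edgeR called the maturation gene Tent5c higher (adjusted p = 0.00562), where 2.57% of all tested genes were called higher. Nfe2, which encodes a globin gene regulator also used by megakaryocytes, had 10, 26 and 10 counts in CRY1 KO 1, 2 and 3, against 175, 82 and 58 in WT 1, 2 and 3.

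Genes of haem synthesis showed no common pattern with globin, although Alas1 had the order of the globins within WT. Alas1, the liver form of the gateway enzyme, had 178.6, 452.7 and 583.4 CPM in CRY1 KO 1, 2 and 3, against 616.2, 426.5 and 117.0 CPM in WT 1, 2 and 3. Both groups spanned low and high libraries, and the ratio of Alas1 to Alas2 counts ran from 1.38 to 5.88 in the libraries labelled CRY1 KO and from 1.26 to 4.50 in WT. Fech, the ferrochelatase gene of the last step, had 167.0 to 178.8 CPM in the libraries labelled CRY1 KO and 138.9 to 165.2 CPM in WT. Cpox had 100.6 to 107.1 CPM in the libraries labelled CRY1 KO and 76.8 to 92.1 CPM in WT. The edgeR test called 0 of 8 genes of this list, against 1.7% of all tested genes. Unadjusted p was under 0.05 for 5 of them, against 20.7% of all tested genes, and DESeq2 called 2, against 10.9%.

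Plasma proteins that bind haemoglobin and haem were highest in the same library. Hp, the gene of haptoglobin, which binds free haemoglobin, had 1489, 1626 and 1366 CPM in CRY1 KO 1, 2 and 3, against 3858, 2719 and 1836 CPM in WT 1, 2 and 3. Hpx, the gene of the haem carrier hemopexin, had 2687, 2601 and 2252 CPM in CRY1 KO 1, 2 and 3, against 5748, 4062 and 2374 CPM in WT 1, 2 and 3. Both genes are also acute phase genes of hepatocytes. For both the order of the WT libraries was that of the globins, and for Hp the libraries labelled CRY1 KO all lay below WT, as they did for 12.7% of tested genes. Cd163, the macrophage receptor gene for haptoglobin-bound haemoglobin, had 8.85 to 10.9 CPM in the libraries labelled CRY1 KO, against 25.1, 8.41 and 7 CPM in WT 1, 2 and 3. Of 14 tested clearance genes 0 were called by edgeR, against 1.7% of all tested genes. Unadjusted p was under 0.05 for 3, near the 20.7% of all tested genes, and DESeq2 called 2, near its 10.9%. Without WT 3 edgeR called Hp, Hpx and Spic lower (adjusted p = 0.0149, 0.0235 and 0.0379), where 2.63% of all tested genes were called lower.

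Markers of other cells that blood or liver can hold moved with WT 1 as well, and their part in the globin values was not tested. All 11 Kupffer cell markers were highest in WT 1, where 20.1% of the table was, and their summed level was 207.6 to 210.4 CPM in the libraries labelled CRY1 KO, against 598.3, 372.3 and 226.5 CPM in WT 1, 2 and 3. The 13 neutrophil markers in the table summed to 2.24 to 2.56 CPM in the libraries labelled CRY1 KO, against 10.1, 5.69 and 3.71 CPM in WT 1, 2 and 3. Of these, 6 were at 0 in each library labelled CRY1 KO, with Ltf at 0 in all 3, against 1, 3 and 5 at 0 in WT 1, 2 and 3. The 10 monocyte markers summed to 69.9 to 75 CPM in the libraries labelled CRY1 KO and 73.2 to 156.3 CPM in WT, also highest in WT 1. The edgeR test called 0 of 11 Kupffer, 0 of 6 neutrophil and 0 of 9 monocyte markers tested, against 1.7% of all tested genes. Unadjusted p was under 0.05 for 7, 2 and 3 of them, against 20.7% of all tested genes, and DESeq2 called 6, 1 and 0, against 10.9% of the genes it adjusted. Most of the neutrophil markers tested and some monocyte markers had no DESeq2 adjusted p and could not be called. Without WT 3 edgeR called 8, 1 and 3 lower, against 2.63% of all tested genes.

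Summed platelet markers were highest in WT 1, and 7 of the 15 were highest there one by one, where 20.1% of the table was. Summed B and T cell markers were highest in other libraries. The platelet markers summed to 16.4 to 19.4 CPM in the libraries labelled CRY1 KO, against 25.6, 20.5 and 18.2 CPM in WT 1, 2 and 3. B and plasma cell markers summed to 3.98 to 5.39 CPM in the libraries labelled CRY1 KO, against 9.44, 10.2 and 15 CPM in WT 1, 2 and 3, with WT 3 highest. Their plasma cell gene Jchain fell (log2 -2.45, SE 0.33, edgeR adjusted p = 0.0194), with 1.51, 0.947 and 1.04 CPM in CRY1 KO 1, 2 and 3, against 5.84, 4.12 and 9.23 CPM in WT 1, 2 and 3. It was the only gene called by edgeR among the cell type lists, where 1.7% of all tested genes were called. The call was lost without CRY1 KO 1, 2 or 3, where calls over the whole table fell from 235 to 40, 20 and 30. T and NK cell markers summed to 4.97 to 6.00 CPM in the libraries labelled CRY1 KO and 6.18 to 8.10 CPM in WT, highest in WT 2. Endothelial markers summed to 322.9 to 397.3 CPM in the libraries labelled CRY1 KO and 325.6 to 348.9 CPM in WT. The edgeR test called 0 of 12 platelet, 0 of 12 T and NK cell and 0 of 10 endothelial markers tested. DESeq2 also called 0 of each, where it called 10.9% of the genes it adjusted. It gave no adjusted p to most of the platelet and most of the T and NK cell markers. Those could not be called, so its 0 says little for these 2 lists. Unadjusted edgeR p was under 0.05 for 2 platelet, 0 T and NK cell and 3 endothelial markers, against 20.7% of all tested genes.

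**Figure D5:**
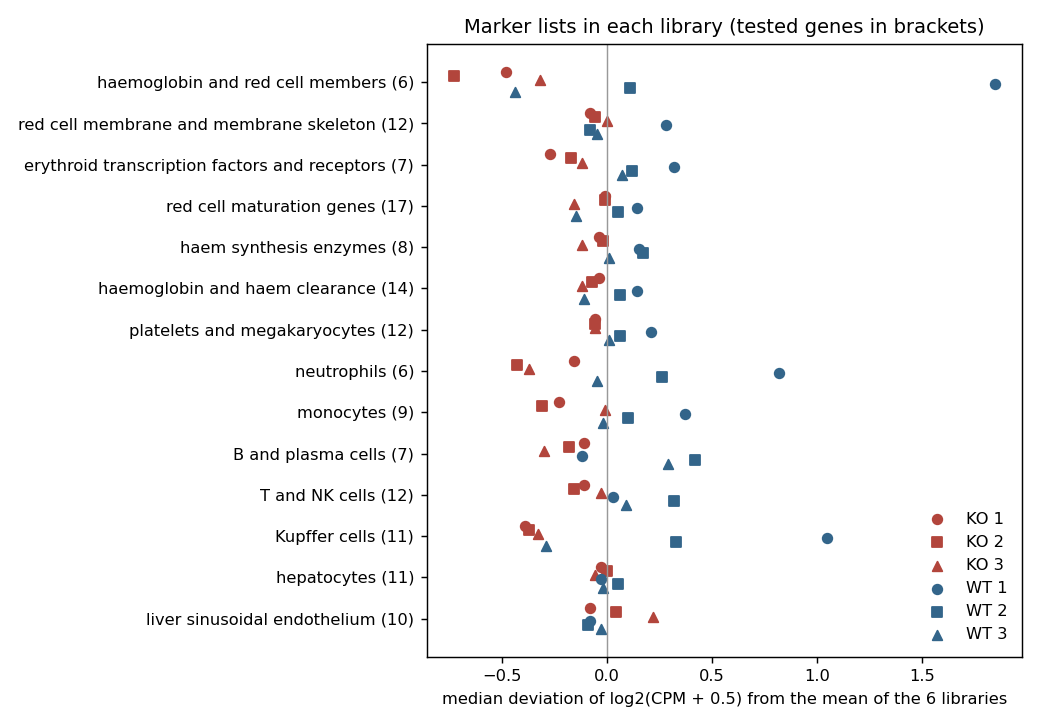
Median deviation of log2(CPM + 0.5) from the mean of the 6 libraries (horizontal axis), over the tested genes of each list (rows, number tested in brackets), with CRY1 KO in red and WT in blue. WT 1 lies farthest right for the 6 red cell genes (1.85), Kupffer cells (1.05) and neutrophils (0.82), and near 0 for hepatocytes (-0.03).

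The genes whose profile over the 6 libraries was most like the mean profile of the 6 members were found by the root mean square distance of centred log2(CPM + 0.5) values. Among the 10 nearest were Ifi27l2a (0.18), Prtn3 (0.22), Syne4 (0.25), Sgsm1 (0.26), Ctse (0.26), Ifi27l2b (0.28), Folr2 (0.30), Atp11a (0.31) and Cd5l (0.31). Folr2 and Cd5l are Kupffer cell markers, and Prtn3 is the proteinase 3 gene of neutrophil granules. Prtn3 had 9, 0 and 0 counts and Ctse 0, 6 and 0 in CRY1 KO 1, 2 and 3, so the added 0.5 weighs on their distances. Among the members, distance from this profile was 0.10 to 0.20 for the globins, 0.50 for Slc4a1 and 0.70 for Alas2, which put Alas2 at rank 1706 among the tested genes. When the profile was that of the 4 globin genes, an alternative chosen after seeing the data, 6 of the 10 were the same. The members' mean profile, as a log2 deviation, was -0.40, -0.58 and -0.36 in CRY1 KO 1, 2 and 3, against 1.74, 0.04 and -0.45 in WT 1, 2 and 3.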

How the data were processed

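Messenger RNA of 6 mouse liver samples had been sequenced. Per the labels' protocols, RNA was extracted with phenol-chloroform and libraries were made with a stranded TruSeq mRNA kit. The deposited table holds whole numbers per gene, taken here as estimated counts and used as deposited. Tools named in the submitters' processing notes, with no settings, include the aligner HISAT2 (2.2.1) and StringTie (2.1.7), besides limma (3.42.2) and the read trimmer Trim Galore (0.6.7). The build named there is GRCm39 (mm39). The unit was inferred from the values, since the value 3 was held by 99 to 140 genes of a library and the value 1 by 10 to 32. No gene summed to under 11 over all libraries.

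Genes were filtered (filterByExpr, minimum count 10, minimum total 15), scaled by TMM (trimmed mean of M values) and compared with the quasi-likelihood test of edgeR 4.0.16, with Benjamini-Hochberg adjustment over 13816 genes at 0.05. Differences are CRY1 KO minus WT. The fit was tested on simulated data. Alternatives were DESeq2 1.42.0, its size factors, library totals, no filter, a replicate block and leaving out each library. Ratios, distances and motif matches were computed with pandas 2.3.3 and Python 3.11.15. Coding lengths and gene overlap came from GENCODE M21 and promoters from RefSeq, both GRCm38, and no coordinates of the table's build were used.

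The members and all gene lists were chosen with earlier results of these data known, so no list was tested as a set. The naming rule took the 6 members, called genes and the 3 most abundant tested genes of each list, and the 10 most like genes. Some genes that it takes, or that the lists hold, are not reported here, and others were named after their values were seen.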

Additional observations from a re-analysis of the deposited data

How the results depend on the processing

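The log2 ratio of mean summed haemoglobin, -1.39 for libraries labelled CRY1 KO over WT, lay between -1.77 and -0.43 with each library left out. The value nearest 0 was that without WT 1. Of 66 recomputed differences of the 6 genes, 61 moved by less than 1 SD and 5 by more. Called genes of the whole table numbered 235, against 113 with library totals, 94 with the replicate number as a block, 1322 by DESeq2 and 17 (without WT 2) to 844 (without WT 3) with a library left out. DESeq2 called 6 erythroid (3 lower, 3 higher), 4 haem (3 lower, 1 higher), 2 blood cell (2 lower) and 6 liver cell genes (6 lower). Over the whole table it called 10.9% of the genes it adjusted. Some tested genes of the erythroid and blood cell lists had no DESeq2 adjusted p and could not be called. The edgeR test called 0, 0, 1 and 0, against 1.7% of all tested genes. Tested genes numbered 36 in the erythroid lists and 8 and 14 in the haem lists. They numbered 12, 6, 9, 7 and 12 in the blood cell lists and 11, 11 and 10 in the liver cell lists. With a library left out edgeR called 0 to 2, 0 to 3, 0 to 5 and 0 to 8 genes of these families. The highest of these counts was without WT 3 in each family, and those genes were all lower. In that fit 2.63% of all tested genes were called lower, and the cause was not tested. Replicate numbers were not taken as pairs. Deviations of same-numbered libraries correlated at -0.108, -0.0604 and 0.114, and only those numbered 3 correlated best with each other. The replicate block called 0 of the 6 genes, as did every other setting run. Slc4a1 and the precursor genes near 0 are limited by depth outside WT 1.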

Other observations

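Beside the red cell genes, WT 1 held high values of further genes, which were named after their values were seen. Mpo, the myeloperoxidase gene of granulocyte precursors, had 0, 0 and 10 counts in CRY1 KO 1, 2 and 3, against 82, 0 and 0 in WT 1, 2 and 3. Prtn3 had 9, 0 and 0 counts in CRY1 KO 1, 2 and 3, against 229, 31 and 24 in WT 1, 2 and 3. Tspo2, an erythroid relative of the mitochondrial translocator protein gene, was at 0 in the libraries labelled CRY1 KO, with 34, 3 and 0 counts in WT 1, 2 and 3. Of the 11 genes at 0 in all libraries but WT 1, those outside the lists were Btnl10 (47 counts in WT 1), Cldn13 (25), Slc38a5 (16), Fam186b (15), Slc6a20a (14) and Insyn1 (13).

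The acute phase genes Saa1 and Orm2, also named after their values were seen, were high in WT 1 as well. Saa1, a serum amyloid A gene, had 23.7, 42.0 and 24.3 CPM in CRY1 KO 1, 2 and 3, against 988.6, 127.8 and 13.7 CPM in WT 1, 2 and 3. Orm2, an orosomucoid gene, had 10.7 to 15 CPM in the libraries labelled CRY1 KO, against 198.8, 41.5 and 10.5 CPM in WT 1, 2 and 3. As with globin, WT 1 was highest and WT 2 next, and their part in the globin values was not tested.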
